A study of Mus musculus with 6 samples.

Results

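The genes described here carry out or restrain cell death: 40 genes of apoptosis, necroptosis and pyroptosis, picked by symbol for their place in these pathways, by a rule that uses no level in the retina, although earlier results of these data were known when the list was made. All 40 symbols were found among the 24346 gene symbols measured. They were sorted into 11 groups by death route: the pore-forming effectors, the guardians that hold them back, the BH3-only genes, the apoptosome with its caspases, the inhibitors of apoptosis, the death receptor adaptors, the necroptosis genes, the inflammasome genes, caspase-independent nuclear death, p53, and the axon degeneration gene Sarm1.

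RNA was sequenced from whole mouse retina, with 3 libraries from Unc119-/- mice (called knockout here) and 3 from Unc119+/+ mice (wild type). Unc119 is a lipid-binding chaperone that carries transducin and other acylated proteins in photoreceptors, and the study's title links its loss to cone-rod dystrophy and to inflammatory JAK-STAT and NF-kB signalling. The labels name no other allele or agent; no source used here gives the strain, the age, how the allele was made, or whether each library is a separate animal. A p-value here sets a difference against the scatter of these libraries alone, which may be in part technical.

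Apoptosis through mitochondria begins when BH3-only proteins overcome the BCL2 guardians, BAX and BAK open the outer membrane, and released cytochrome c builds the apoptosome that activates caspase-9. Necroptosis (RIPK3 and MLKL) and pyroptosis (inflammasomes, caspase-1 and gasdermin D) break the plasma membrane instead, and release signals that inflame the tissue. In degenerating retinas photoreceptors can die by several of these routes, and microglia, the resident immune cells, are a known source of inflammasome components. Much of this machinery is switched on at the level of proteins, so RNA levels give the stock of parts and not the rate of death.

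Unc119 itself averaged 473 ± 32.8 FPKM in knockout and 1195 ± 10.1 FPKM in wild-type retinas (SD, n = 3 each; 39.6% of wild type), with no overlap between genotypes. FPKM is a fragment count divided by transcript length and library size. Rod marker sums overlapped between genotypes (27170 to 28573 FPKM in knockout and 26361 to 28520 FPKM in wild type). Cone marker sums did not overlap, by a narrow gap, at 706 to 754 FPKM in knockout and 761 to 821 FPKM in wild type. Of the 8 cone markers, 7 had a negative change and none was called. Only 2 were lower at an unadjusted p under 0.05 (3.81% of all genes tested), Opn1sw and Pde6h, at 89.7% and 86.4% of wild type. Arr3 was at 99.3% and Opn1mw at 105%, and Gnat2, Pde6c, Cnga3 and Cngb3 were from 86.0% to 98.3%. All 15 measurable microglia and macrophage markers of 16 listed had a positive change. Of them 2, C1qc and Ctss, rose after adjustment, where 0.205% of all genes tested did. The summed level of the list ran from 87.8 to 106 FPKM in knockout and from 58.3 to 62.6 FPKM in wild type. Lens markers summed to 10686 FPKM in knockout replicate 3 and to between 0.704 and 647 FPKM in the other 5 libraries. Pigment epithelium markers summed to 23.9 to 117 FPKM in knockout and 27.5 to 52.0 FPKM in wild type. Mueller glia markers summed to 2087 to 2644 FPKM in knockout and 1969 to 2094 FPKM in wild type. Both of these ranges overlapped, and both sums were highest in knockout replicate 3. The Mueller glia sum joins markers that moved in opposite directions, and none of the 10 was called. Without overlap between genotypes, 4 were higher (background 7.83%): Vim, Clu, Apoe and Aqp4, at 177%, 160%, 137% and 107% of wild type. Another 2 were lower without overlap (background 8.04%), Glul and Kcnj10, at 92.4% and 93.0%. Xist, which marks female tissue, was high in knockout replicates 2 and 3 and in wild-type replicate 3, and near 0 in the rest, so each genotype mixed the sexes.

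Of the 40 genes, 27 had a mean of at least 0.5 FPKM over the 6 libraries and were tested, against 14176 genes tested in all. Each was tested two-sided with limma on log2(FPKM + 1), and p-values were adjusted by Benjamini and Hochberg's method across the whole table. None of the 27 was called higher and none lower, where the background of all genes tested was 0.205% called higher and 0.0282% called lower. The smallest adjusted p was 0.159, for Xiap. Of the 27, 15 had a positive and 12 a negative log2 change, with a median of 0.01 beside -0.00 for all genes tested, and all but Bbc3 and Xiap lay within 0.3 of no change. At an unadjusted p under 0.05, 4 members were higher (background 5.19%) and 1 was lower (background 3.81%), which makes 18.5% of the 27 against 9% of all genes tested in either direction, a description of a list whose results were known in advance. Libraries of the genotypes did not overlap for 4 higher members (background 7.83%) and 2 lower members (background 8.04%). An exact permutation test on 1 gene cannot go below a p of 0.1 with 3 libraries on each side. Any gene whose genotypes do not overlap takes that value, so the test adds nothing for these 6.

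**Figure D1:**
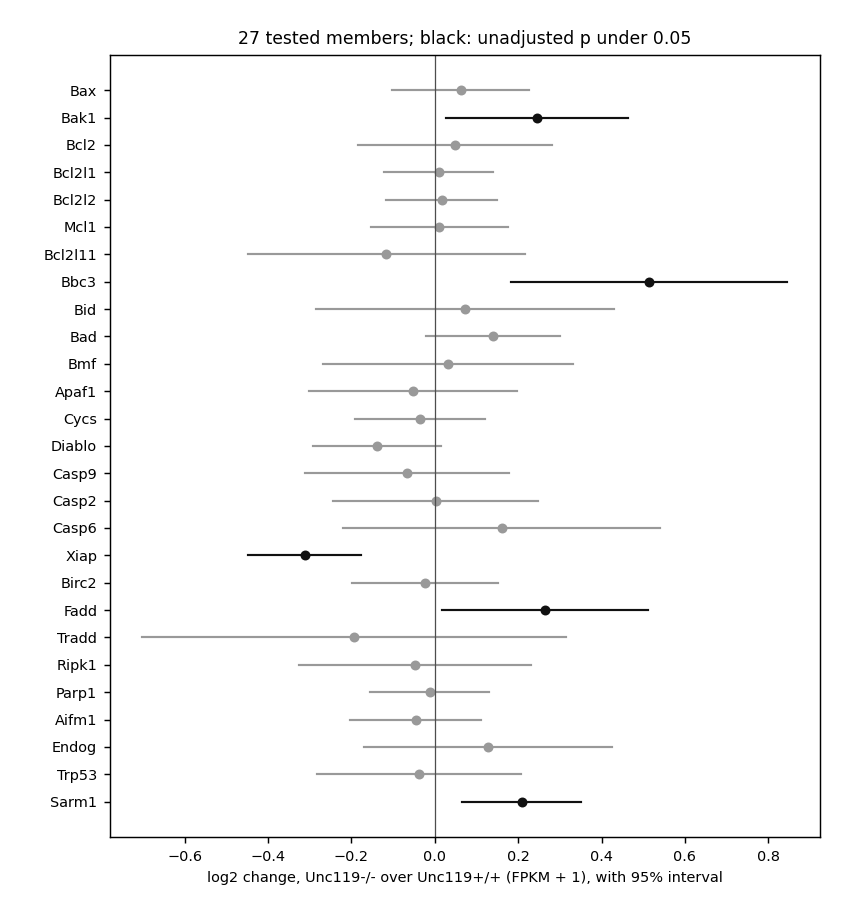
Log2 change of the 27 tested genes, knockout over wild type, on log2(FPKM + 1), with 95% intervals from limma; genes run down the page by death route. The 5 intervals drawn in black exclude no change before adjustment (Bak1, Bbc3, Fadd and Sarm1 above it, Xiap below it), and the 22 grey ones include it.

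By level, necroptosis and the inflammasome were the routes without a tested member. The 27 tested members averaged between 1.12 FPKM (Bbc3) and 84.1 FPKM (Xiap) over the 6 libraries. Neither necroptosis gene and none of the 6 inflammasome genes reached the minimum for testing. Pmaip1, Bik, Hrk, Birc3 and Casp8, which belong to other routes, did not reach it either. Mlkl was the lowest of all members with a mean of 0.0143 FPKM. In bulk tissue, fewer cells of a type and less RNA per cell cannot be told apart, so these levels are averages over all retinal cells.

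**Figure D2:**
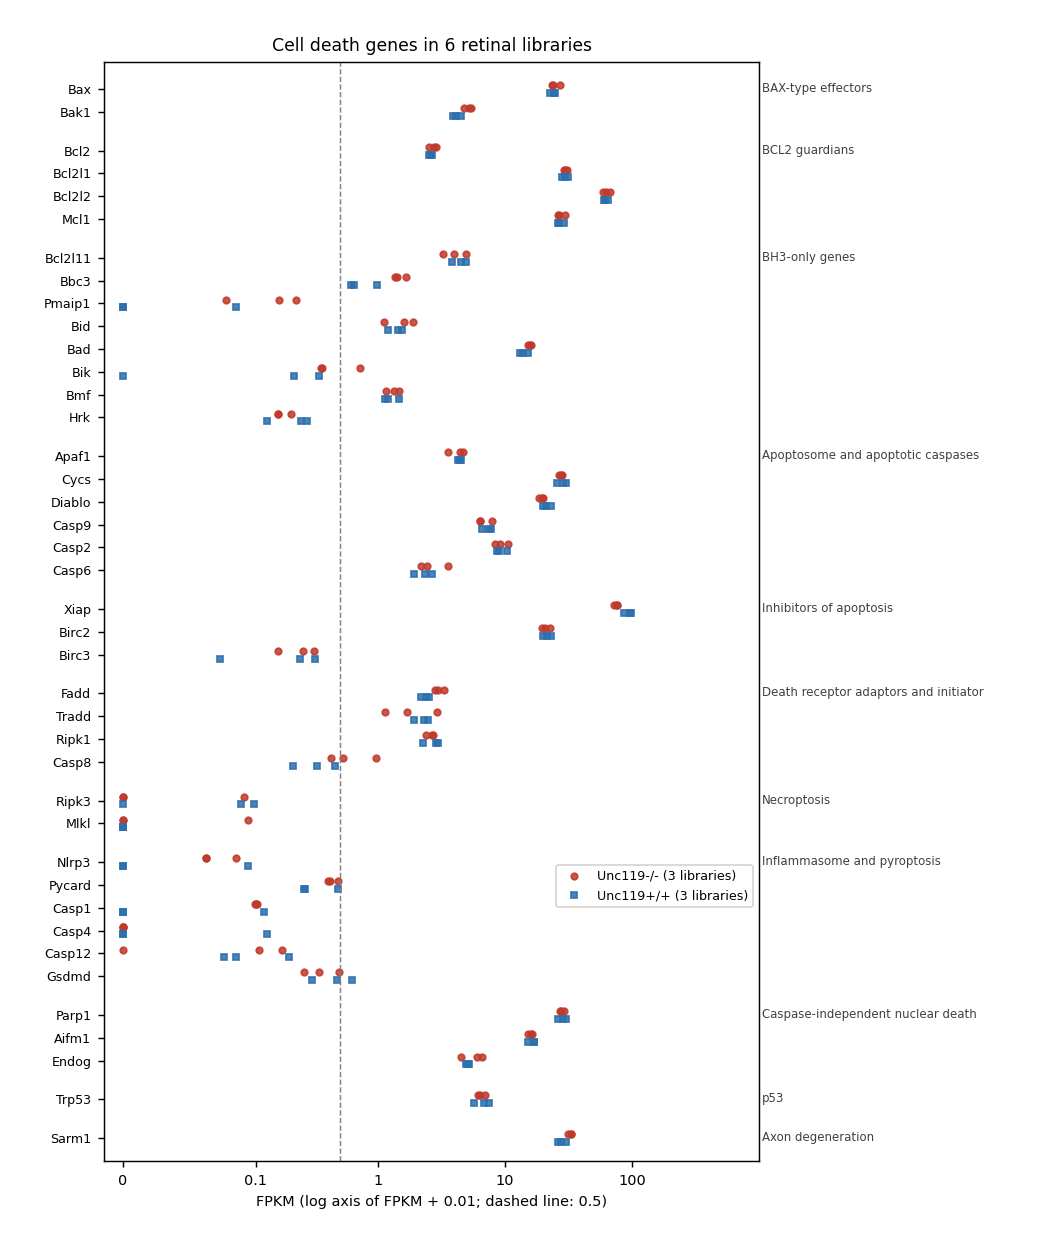
FPKM of all 40 genes in each library, on a log axis of FPKM + 0.01, grouped by death route, with knockout libraries as circles above wild-type libraries as squares. The dashed line is the 0.5 FPKM minimum for the mean of a tested gene; the means of the necroptosis and inflammasome genes lie to its left, and Xiap is farthest to the right.

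The inhibitors of apoptosis held the member with the smallest p. Xiap, on chromosome X, encodes an inhibitor that binds and blocks active caspases. It measured 76.0, 76.0 and 72.7 FPKM in knockout replicates 1 to 3, against 95.8, 85.8 and 98.5 FPKM in wild-type replicates 1 to 3. Every knockout library was below every wild-type library, and the knockout mean of 74.9 ± 1.89 FPKM was 80.2% of the wild-type mean of 93.4 ± 6.68 FPKM (SD, n = 3 each). The log2 change was -0.31 (SE 0.06, 95% interval -0.45 to -0.18), with an unadjusted p of 0.000772 and an adjusted p of 0.159 from limma. Since the gene is X-linked and the sexes were mixed, it was also compared within them. The log2 difference was -0.40 among the 3 libraries with high Xist (2 knockout, 1 wild type). It was -0.25 among the 3 with low Xist (1 knockout, 2 wild type). With 1 library on 1 side of each split, these differences carry no measure of scatter and cannot decide the part of sex. Aifm1, the other X-linked member and a mitochondrial flavoprotein that can move to the nucleus, averaged 15.8 ± 0.614 FPKM in knockout and 16.4 ± 1.06 FPKM in wild type, with overlapping genotypes. Birc2, a ubiquitin ligase that guards TNF receptor signalling, averaged 21.1 ± 1.58 FPKM in knockout and 21.4 ± 1.50 FPKM in wild type, and its relative Birc3 was below the minimum.

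Diablo encodes the mitochondrial protein that is released to displace XIAP from caspases. It measured 19.8, 19.5 and 18.5 FPKM in knockout replicates 1 to 3, against 20.0, 21.1 and 23.0 FPKM in wild-type replicates 1 to 3. The genotypes did not overlap, but by a narrow gap, with a log2 change of -0.14 (unadjusted p = 0.0711, adjusted p = 0.582, limma). Gm49027, a protein-coding gene that is not in the files, shares a span of 12095 bases, introns included, with Diablo on the same strand; its part in the Diablo values was not tested. The Xiap level over the Diablo level, a ratio chosen after the values were seen, was 3.89 ± 0.0503 in knockout and 4.38 ± 0.367 in wild type.

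The pore-forming effectors are BAX and BAK, and only Bak1 had separated genotypes. Bax measured 23.5, 27.2 and 24.0 FPKM in knockout replicates 1 to 3, against 24.7, 24.3 and 22.5 FPKM in wild-type replicates 1 to 3, which overlap (log2 change 0.06, adjusted p = 0.813, limma; -0.0014 without knockout replicate 2). Bak1 measured 5.40, 4.75 and 5.24 FPKM in knockout replicates 1 to 3, against 3.90, 4.49 and 4.12 FPKM in wild-type replicates 1 to 3. Every knockout library was above every wild-type library for Bak1, with a log2 change of 0.25 (SE 0.09, unadjusted p = 0.0319, adjusted p = 0.516, limma). All 9200 bases of Bak1 lie within Ggnbp1 on the opposite strand, a gene listed at 1.92, 3.01 and 2.56 FPKM in knockout and at 1.47, 1.25 and 3.04 FPKM in wild type. The library kit keeps strand, per the labels, but no source used here says whether the counting used it, so reads of the pair may have been mixed.

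The 4 guardians, which keep BAX and BAK closed, differed by a few percent between genotypes, less than the spread between libraries. Bcl2l2, the highest of them, measured 66.8, 62.2 and 58.8 FPKM in knockout replicates 1 to 3, against 61.3, 59.9 and 64.3 FPKM in wild-type replicates 1 to 3. Bcl2l1 (BCL-XL) averaged 30.0 ± 0.920 FPKM in knockout and 29.9 ± 1.58 FPKM in wild type, and Mcl1 averaged 27.5 ± 1.91 FPKM in knockout and 27.3 ± 1.83 FPKM in wild type. Bcl2 was the least abundant at 2.72 ± 0.164 FPKM in knockout and 2.60 ± 0.0732 FPKM in wild type. The log2 changes of the 4 lay between 0.01 and 0.05, and their 95% intervals reached down to a fold of 0.881 and up to 1.22, both for Bcl2, on the FPKM + 1 scale. Bcl2l2 shares 4794 bases with the same-strand gene Gm20521, which is not in the files.

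Among the 8 BH3-only genes, which sense damage and neutralise the guardians, 5 were tested and their median log2 change was 0.07. Bbc3 encodes PUMA, a BH3-only protein that p53 and other stress factors induce. It measured 1.43, 1.36 and 1.67 FPKM in knockout replicates 1 to 3, against 0.643, 0.982 and 0.610 FPKM in wild-type replicates 1 to 3. Every knockout library was above every wild-type library, and the knockout mean of 1.49 ± 0.167 FPKM was 199% of the wild-type mean of 0.745 ± 0.206 FPKM (SD, n = 3 each). The log2 change was 0.51 (SE 0.14, 95% interval 0.18 to 0.85), with an unadjusted p of 0.00737 and an adjusted p of 0.389 from limma. With a pseudocount of 0.1 in place of 1 the log2 change was 0.93, since the larger pseudocount compresses changes of low genes.

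Bad, the most abundant BH3-only gene, measured 15.8, 16.1 and 15.2 FPKM in knockout replicates 1 to 3, against 13.2, 14.0 and 15.3 FPKM in wild-type replicates 1 to 3. Wild-type replicate 3 overlaps the knockout libraries (log2 change 0.14, adjusted p = 0.594, limma). Bcl2l11 (BIM), Bid and Bmf had log2 changes of -0.12, 0.07 and 0.03, with overlapping genotypes. Pmaip1, Bik and Hrk were below the minimum. Bik, listed at 0.359, 0.721 and 0.348 FPKM in knockout replicates 1 to 3 and at 0, 0.336 and 0.209 FPKM in wild-type replicates 1 to 3, was the only untested member whose genotypes did not overlap, by a gap smaller than the spread within either genotype.

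**Figure D3:**
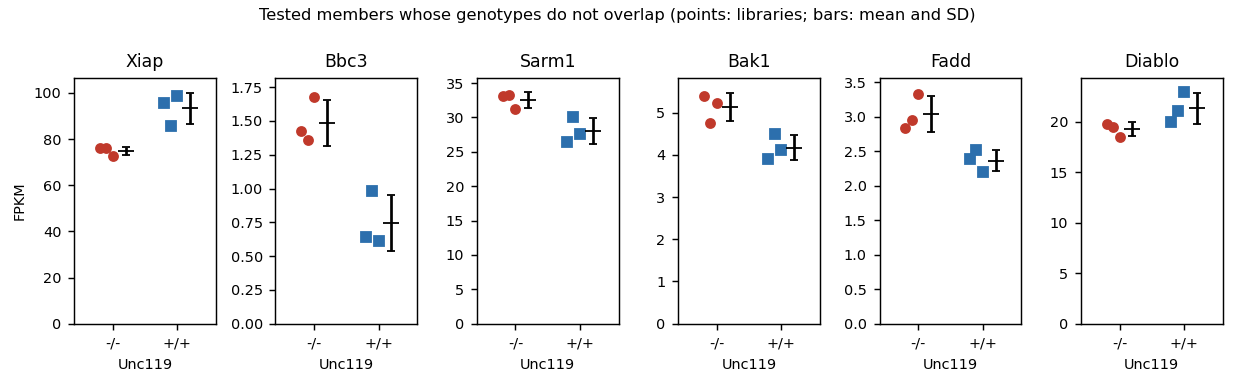
FPKM by library of the 6 tested genes whose genotypes did not overlap, each on its own axis from 0, with knockout on the left and wild type on the right; points are libraries and bars the mean and SD of 3. Bbc3 has the widest separation relative to its level, with means of 1.49 FPKM in knockout and 0.745 FPKM in wild type, and Diablo the narrowest, with means of 19.3 FPKM in knockout and 21.3 FPKM in wild type.

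Downstream of the mitochondria, all 6 genes of the apoptosome and apoptotic caspases were tested, and 5 of them had overlapping genotypes, Diablo being the exception. Cycs, which encodes cytochrome c, was the highest at 28.1, 27.9 and 26.9 FPKM in knockout replicates 1 to 3, against 30.5, 25.8 and 28.9 FPKM in wild-type replicates 1 to 3. Apaf1, the scaffold of the apoptosome, averaged 4.24 ± 0.580 FPKM in knockout and 4.41 ± 0.105 FPKM in wild type. Casp9, the initiator it recruits, averaged 6.92 ± 0.901 FPKM in knockout and 7.28 ± 0.600 FPKM in wild type. Casp2, an initiator activated in the PIDD complex, averaged 9.36 ± 1.18 FPKM in knockout and 9.33 ± 0.932 FPKM in wild type. Casp6, which cleaves lamins and axonal proteins, averaged 2.73 ± 0.734 FPKM in knockout and 2.31 ± 0.377 FPKM in wild type. The median log2 change of the group was -0.04.

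Of the death receptor adaptors, Fadd was the one with separated genotypes. Fadd links receptors of the FAS and TNF family to caspase-8. It measured 2.84, 2.95 and 3.34 FPKM in knockout replicates 1 to 3, against 2.38, 2.52 and 2.20 FPKM in wild-type replicates 1 to 3. Every knockout library was above every wild-type library, with a log2 change of 0.26 (SE 0.11, unadjusted p = 0.0393, adjusted p = 0.526, limma). The antisense gene Faddos, which is not in the files, covers 4195 bases of Fadd on the other strand, so its reads may be mixed in. Tradd, the adaptor of TNF receptors, was the most scattered, with 1.12, 1.70 and 2.95 FPKM in knockout replicates 1 to 3, against 1.93, 2.31 and 2.48 FPKM in wild-type replicates 1 to 3. Ripk1, the kinase that steers TNF signalling to survival or death, averaged 2.58 ± 0.184 FPKM in knockout and 2.71 ± 0.397 FPKM in wild type. Casp8, the initiator caspase that FADD recruits and that also restrains necroptosis, was just under the minimum, at 0.421, 0.968 and 0.526 FPKM in knockout replicates 1 to 3 and 0.205, 0.450 and 0.325 FPKM in wild-type replicates 1 to 3, which overlap.

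The genes of caspase-independent nuclear death and p53 itself overlapped between genotypes. Parp1, whose overactivation drives parthanatos, measured 27.3, 29.1 and 27.8 FPKM in knockout replicates 1 to 3, against 28.6, 30.0 and 26.4 FPKM in wild-type replicates 1 to 3. Endog, a mitochondrial nuclease, averaged 5.72 ± 1.10 FPKM in knockout and 5.09 ± 0.135 FPKM in wild type. Trp53 measured 6.14, 6.38 and 6.95 FPKM in knockout replicates 1 to 3, against 5.76, 7.53 and 6.85 FPKM in wild-type replicates 1 to 3. Beside it, of 12 listed regulators and targets of p53, 10 were tested and none had an unadjusted p under 0.05 in either direction. That list leaves out p53 targets that are members, Bbc3 and Pmaip1 among them, so it does not cover all targets.

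Sarm1 encodes the enzyme that destroys NAD+ in injured axons, and in mice it also takes part in photoreceptor loss. It measured 33.1, 33.2 and 31.2 FPKM in knockout replicates 1 to 3, against 26.4, 30.1 and 27.6 FPKM in wild-type replicates 1 to 3. Every knockout library was above every wild-type library, and the knockout mean of 32.5 ± 1.13 FPKM was 116% of the wild-type mean of 28.0 ± 1.85 FPKM (SD, n = 3 each). The log2 change was 0.21 (SE 0.06, 95% interval 0.07 to 0.35), with an unadjusted p of 0.0099 and an adjusted p of 0.399 from limma.

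Sarm1 is a neighbour of the mutated gene. On mm10 it spans chr11:78472330-78497754 on the minus strand, 123165 bases from Unc119 at chr11:78343482-78349164. Within 1 Mb on either side of Unc119, 45 genes besides Unc119 were tested, and Sarm1 is itself among them. Of these, 7 (15.6%), Sarm1 included, had an unadjusted p under 0.05 against 9% of all genes tested. Of the 45, 9 were higher, again with Sarm1, and 4 lower without overlap between genotypes. That is 28.9% against 15.9% of all genes tested, and none was called after adjustment. Both shares thus count the values of Sarm1 and are not separate from them. Vtn, which starts 1336 bases beyond Sarm1, averaged 496 ± 9.01 FPKM in knockout and 458 ± 7.74 FPKM in wild type. Loss of Unc119 and strain sequence linked to the mutated allele cannot be told apart for Sarm1 in this design. Trp53 and Nlrp3 lie on the same chromosome, outside that window.

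The promoters of the 3 members with the smallest p are shown because the study's title names NF-kB and JAK-STAT signalling. They come from RefSeq on GRCm38.p6, run from 250 bases before to 50 after a transcript start, and read 5′ to 3′ on the gene's strand. Capitals mark letters that match the NF-kB consensus on either strand; in Bbc3 they cover 2 matches that overlap. Xiap and Bbc3 have 3 windows each, and the one shown was picked because it holds the match; the other 2 windows of each gene hold none. The window of Xiap is chrX:42068148-42068447 on the plus strand, the second of its 3 starts.
Xiap: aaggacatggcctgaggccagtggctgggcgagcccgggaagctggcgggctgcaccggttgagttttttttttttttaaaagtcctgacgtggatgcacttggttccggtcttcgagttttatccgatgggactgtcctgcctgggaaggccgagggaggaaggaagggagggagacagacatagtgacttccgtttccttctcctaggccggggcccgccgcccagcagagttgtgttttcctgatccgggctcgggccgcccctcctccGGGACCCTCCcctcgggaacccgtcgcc
The window of Bbc3 is chr7:16309333-16309632 on the plus strand, the first of its 3 starts.
Bbc3: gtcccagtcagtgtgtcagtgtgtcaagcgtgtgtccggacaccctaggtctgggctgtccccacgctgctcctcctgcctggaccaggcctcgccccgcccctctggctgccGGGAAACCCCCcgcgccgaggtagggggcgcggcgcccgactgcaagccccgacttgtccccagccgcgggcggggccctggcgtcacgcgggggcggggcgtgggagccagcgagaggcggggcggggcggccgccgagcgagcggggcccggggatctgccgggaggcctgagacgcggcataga
The window of Sarm1 is chr11:78497705-78498004 on the minus strand, its single start, and holds no match.
Sarm1: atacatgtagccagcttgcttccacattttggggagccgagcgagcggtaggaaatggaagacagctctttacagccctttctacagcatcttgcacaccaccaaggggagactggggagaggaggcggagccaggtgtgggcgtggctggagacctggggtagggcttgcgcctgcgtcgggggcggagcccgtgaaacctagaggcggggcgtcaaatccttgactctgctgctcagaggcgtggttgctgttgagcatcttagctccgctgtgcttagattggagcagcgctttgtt
Of the 40 members, 36 had an entry, with 50 windows in all. The NF-kB consensus occurred in 10 of the 50 windows, which belong to 9 members, and in 8.46% of 32851 mouse promoter windows. The STAT motif TTCNNNGAA occurred in 2 of the 50 and in 8.3% of all windows. The p53 response decamer occurred in 6 of the 50 and in 8.36% of all. A match is a run of letters and not a measured site, and several windows of a gene can share bases.

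The necroptosis pair was close to the limit of measurement. Ripk3, the kinase that commits a cell to necroptosis, was listed at 0.0798, 0 and 0 FPKM in knockout replicates 1 to 3, and at 0.0978, 0.0747 and 0 FPKM in wild-type replicates 1 to 3. Mlkl, the membrane-breaking protein it phosphorylates, was listed at 0.0861 FPKM in knockout replicate 3 and at 0 in the other 5 libraries. Neither gene was tested, and the values do not separate the genotypes.

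The inflammasome genes summed to 1.03 ± 0.196 FPKM in knockout and 1.01 ± 0.214 FPKM in wild type. Gsdmd, the pore of pyroptosis and the highest of them, was listed at 0.338, 0.255 and 0.492 FPKM in knockout replicates 1 to 3, and at 0.622, 0.474 and 0.295 FPKM in wild-type replicates 1 to 3. Pycard, the ASC adaptor, was listed at 0.482, 0.415 and 0.401 FPKM in knockout replicates 1 to 3, and at 0.253, 0.258 and 0.480 FPKM in wild-type replicates 1 to 3. Both pairs of ranges overlap. Casp1, the inflammatory caspase that matures interleukin-1 beta and interleukin-18, was listed at 0.101, 0.102 and 0.0985 FPKM in knockout replicates 1 to 3, and at 0, 0 and 0.118 FPKM in wild-type replicates 1 to 3. Nlrp3, the sensor that starts an inflammasome, Casp4, which senses bacterial lipid inside cells in mice, and Casp12 had no value above 0.193 FPKM in any library. These low levels stand beside microglia marker sums that were higher in every knockout library than in any wild-type library; the part of microglia in the inflammasome values was not tested.

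The spacing of such low values was also examined. Each low gene's FPKM was multiplied by the relative depth of its library and divided by the lowest nonzero product for that gene, which gives the value in steps. The lowest value of each gene is 1 step by construction. Of the 44 other nonzero values of the 13 untested members, 32 were whole numbers of steps within 3%. Of the 11 members with more than 1 nonzero value, 7 were whole throughout, with at most 6 steps in any library; Mlkl and Casp4 had a single nonzero value each. How many fragments make 1 step was not determined. Relative depth was itself taken from genes at or below 0.3 FPKM, and the share of whole values expected by chance was not worked out. Casp1 amounted to 1 step in each of 4 libraries and 0 in the other 2, so 3 steps in knockout and 1 in wild type. Pmaip1, the p53 target NOXA, summed to 8 steps in knockout and 1 in wild type, and Bik to 8 in knockout and 3 in wild type. Birc3 summed to 14 in knockout and 10 in wild type, Nlrp3 to 4 in knockout and 2 in wild type, and Casp12 to 5 in each genotype. Ripk3 summed to 1 in knockout and 2 in wild type, Mlkl to 1 in knockout and 0 in wild type, and Casp4 to 0 in knockout and 1 in wild type. The knockout libraries together were 1.10 times as deep as the wild-type libraries, and values of exactly 0 numbered 8 in knockout and 13 in wild type. With no minimum on the level all 40 members entered the limma fit, and the members with an unadjusted p under 0.05 were again 4 higher and 1 lower.

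**Figure D4:**
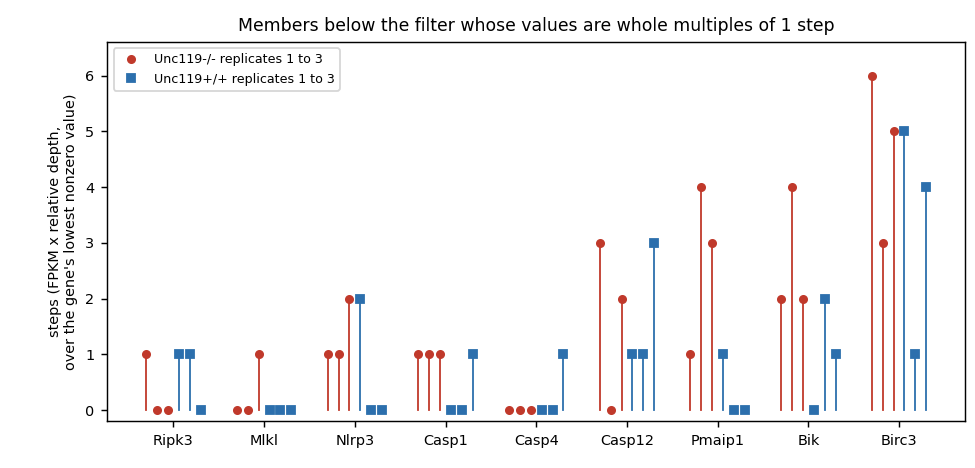
Steps (FPKM times relative depth, over the gene's lowest nonzero value) in each library for the 9 untested members whose values were whole multiples of 1 step (Mlkl and Casp4 by construction, having 1 nonzero value each); within a gene the 3 knockout libraries (circles) stand left of the 3 wild-type libraries (squares). Casp1 is at 1 step in all knockout libraries and in wild-type replicate 3, and no member exceeds the 6 steps of Birc3.

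Ratios taken inside a library do not depend on how that library was scaled. Bax over Bcl2, a common summary of readiness for apoptosis, was 8.26, 10.7 and 8.62 in knockout replicates 1 to 3, against 9.82, 9.22 and 8.49 in wild-type replicates 1 to 3. These ranges overlap, and the means were 9.21 ± 1.34 in knockout and 9.18 ± 0.667 in wild type. The summed effectors and BH3-only genes over the summed guardians gave 0.426, 0.454 and 0.462 in knockout replicates 1 to 3, against 0.402, 0.433 and 0.409 in wild-type replicates 1 to 3. These overlap as well, with wild-type replicate 2 above knockout replicate 1.

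**Figure D5:**
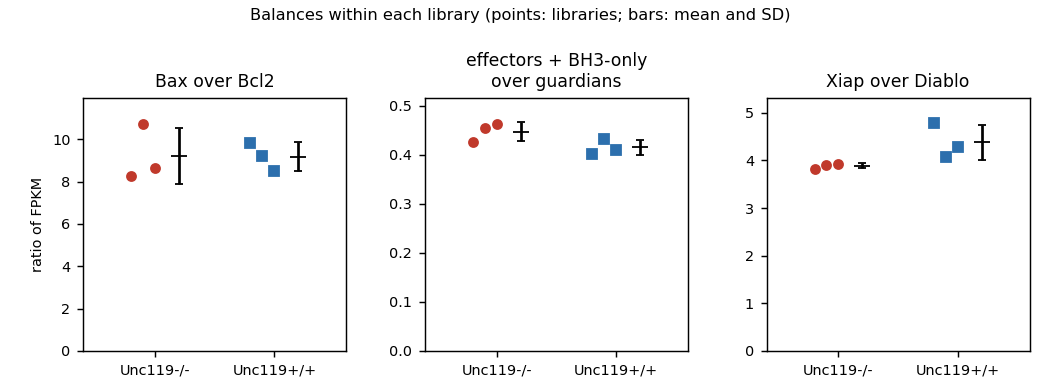
Ratios of FPKM within each library, knockout on the left and wild type on the right, with the mean and SD of 3 libraries. Bax over Bcl2 and the pro-death over guardian sum overlap between genotypes, while Xiap over Diablo, chosen after the values were seen, is lower in every knockout library (mean 3.89) than in any wild-type library (mean 4.38).

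The wider pathways were read from 94 further genes, of which 65 were tested: death ligands and receptors, their complexes, other BCL2 relatives, DNA-cutting factors, necroptosis and inflammasome partners, p53 targets, parthanatos and axon survival. One of the 65 was called higher and none lower after adjustment, and at an unadjusted p under 0.05 there were 5 higher (7.69%, background 5.19%) and 2 lower (3.08%, background 3.81%), shares near the background. Hk1, a hexokinase that is released from mitochondria in parthanatos, was the gene called: it rose to 277 ± 3.33 FPKM in knockout, against 226 ± 6.17 FPKM in wild type (log2 change 0.30, SE 0.04, adjusted p = 0.0412, limma). That call held in 3 of 14 alternatives, and without any single library it was lost (adjusted p over all 14 from 0.0374 to 0.244). Tnfrsf1a, the main TNF receptor upstream of Tradd, Fadd and Ripk1, averaged 5.10 ± 0.797 FPKM in knockout and 2.81 ± 0.485 FPKM in wild type without passing adjustment (log2 change 0.68, adjusted p = 0.218). Cradd, the adaptor that brings caspase-2 to the PIDD complex, averaged 6.53 ± 0.220 FPKM in knockout and 4.47 ± 0.564 FPKM in wild type (log2 change 0.46, adjusted p = 0.232).

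Among the inflammasome partners, of 15 listed and 6 tested, Il18 and Ninj1 had separated genotypes and an unadjusted p under 0.05, where 7.83% of all genes tested were separated higher and 5.19% were higher with such a p. Il18, a cytokine that caspase-1 matures, averaged 7.42 ± 0.746 FPKM in knockout and 5.30 ± 0.826 FPKM in wild type (adjusted p = 0.389, limma). Ninj1, which ruptures the membrane of dying cells, averaged 6.80 ± 0.815 FPKM in knockout and 5.05 ± 0.830 FPKM in wild type (adjusted p = 0.476, limma). Macrophages also carry these genes and Tnfrsf1a, and the part of the higher microglia markers in their levels was not tested. Among 8 genes of NAD and axon survival, which surround Sarm1, 2 had separated genotypes in the other direction, where 8.04% of all genes tested were separated lower. Over all 65 genes, 4 were separated lower (6.15%) and 7 higher (10.8%, background 7.83%). Map3k12, the kinase DLK that signals axon injury, averaged 40.1 ± 1.47 FPKM in knockout and 45.3 ± 0.451 FPKM in wild type (log2 change -0.17, adjusted p = 0.369, limma). Stmn2, an axon maintenance protein, averaged 33.5 ± 0.980 FPKM in knockout and 37.7 ± 2.63 FPKM in wild type (log2 change -0.16, adjusted p = 0.515, limma).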

How the data were processed

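Retinal RNA was extracted with TRIzol and made into stranded mRNA libraries, per the labels' protocols. The authors deposited 1 table per library with FPKM values by gene symbol; TopHat2 2.1.1, Cuffdiff 2.2.1 and mm10 are named in the submitters' processing notes. FPKM hides the number of fragments, so absolute depth is unknown; relative depth, from the commonest ratio of genes at or below 0.3 FPKM, ran from 0.931 to 0.964 in knockout and from 0.763 to 1 in wild type. The genotypes were compared on log2(FPKM + 1) with limma 3.58.1 (R 4.3.3), letting the prior variance follow the mean, for genes with a mean of at least 0.5 FPKM, a filter that makes no use of genotype. The log2 scale understates changes of low genes. Some zeros may be failed estimates. Gene positions are from GENCODE on GRCm38 and promoters from RefSeq. The members and lists were chosen with earlier results of these data known. Library values are given for members whose genotypes did not overlap or with an unadjusted p under 0.05 and for the highest member of each route; other pathway genes are named when called, or when separated with an unadjusted p under 0.05, at most 2 per list.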

Additional observations from a re-analysis of the deposited data

How the results depend on the processing

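The comparison was repeated under 14 alternatives: another pseudocount, no filter or a stricter one, quantile or median-of-ratios scaling, 1 prior variance, the replicate number or the Xist level as a term, and each library left out in turn. No member was called under any of them, while the number of all genes called ran from 12 to 33. Xiap (log2 change -0.37 to -0.27), Bbc3 (0.45 to 0.93) and Sarm1 (0.17 to 0.26) kept an unadjusted p under 0.05 in all 14; Bak1 did in 8 and Fadd in 7. The adjusted p of Xiap ran from 0.0797, without wild-type replicate 2, to 0.481, without wild-type replicate 3. Members higher at an unadjusted p under 0.05 numbered 2 with quantile normalization and 2 with the replicate block, against 4, and from 2 to 4 with a library left out; members lower numbered from 1 to 2 with a library left out. The replicate numbers gave no sign of pairing the libraries, though 3 pairs cannot exclude it. Deviations of same-numbered libraries correlated at 0.07, -0.09 and -0.12, and those of other pairs at -0.08 to 0.17. The block called 15 genes in all against 33, but its added terms also leave less to estimate the scatter from. The median log2 change of the tested members was -0.02 with quantile normalization, and ran from -0.02 to 0.03 with a library left out. Signs turned in 28 of 378 member values, spread over 15 members, of which Tradd had the change farthest from 0 (-0.19; -0.43 with an unadjusted p of 0.0275 without knockout replicate 3). With quantile normalization Bcl2 was at -0.025, Bmf at -0.028 and Casp2 at -0.020, and with the Xist term Casp2 was at -0.020 and Parp1 at 0.0023. With a library left out, Apaf1 ran from -0.11 to 0.042, Bax from -0.0014 to 0.10, Bcl2l1 from -0.026 to 0.048, Bcl2l2 from -0.031 to 0.060, Bid from -0.029 to 0.20, Birc2 from -0.078 to 0.025, Bmf from -0.014 to 0.093, Casp2 from -0.086 to 0.075, Cycs from -0.10 to 0.015, Mcl1 from -0.043 to 0.062, Parp1 from -0.061 to 0.030, Ripk1 from -0.14 to 0.0089, Tradd from -0.43 to 0.012 and Trp53 from -0.13 to 0.039. Depth limits the 9 untested members whose values were whole multiples of 1 step, since a single step moves them by a large share of their value. How far it limits the other untested members was not determined.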
